A study of Mus musculus with 31 samples.

Results

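The immunoglobulin genes of the mouse mammary gland were described across 31 lactating dams, together with *Jchain* and *Pigr*. Members were all genes that the GRCm39 annotation classes as immunoglobulin variable (V), diversity (D), joining (J) or constant (C) genes, plus *Jchain* and *Pigr*. There were 266 such genes among the 55379 genes in the files, and 198 of them held at least 10 counts summed over the 31 libraries and were kept. RNA-seq was made from mammary tissue of C57BL/6J dams on day 10 of lactation. The dams ate breeder diet (4 mg/kg folic acid, FA) or FA diet (24 mg/kg), and received fluoxetine, a selective serotonin reuptake inhibitor (20 mg/kg/d, intraperitoneal), or saline from embryonic day 13 to lactation day 10, with diets starting 2 weeks before mating. The groups held 8 dams on breeder diet + saline, 7 on breeder diet + fluoxetine, 8 on FA diet + saline and 8 on FA diet + fluoxetine. These sizes follow the labels, and the study's methods give those of the fluoxetine groups the other way round. The study made 1 library per dam, and the labels give no litter or relation between dams, so p-values measure the spread between these dams.

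An antibody is built of paired heavy and light chains, each with a V region and a C region. The paired V regions bind antigen, and the C region of the heavy chain sets the class. During lactation, plasma cells that secrete IgA settle in the mammary gland, drawn in part by the chemokine CCL28 made by the epithelium. *Jchain* encodes the peptide that joins IgA into dimers, and *Pigr* encodes the epithelial receptor that carries those dimers into milk. V, D and J genes are joined in each B cell, so V transcripts show which genes the local plasma cells had joined, and a V gene is transcribed from its own promoter, which often carries an octamer bound by OCT factors.

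The 8-letter octamer was searched in the window from 250 bases before to 50 bases after each annotated gene start, read from the GRCm39 genome on the gene's strand, in both orientations, ATGCAAAT and its reverse complement ATTTGCAT. The heavy-chain V genes and the light-chain V genes held it in opposite orientations. ATGCAAAT stood in 73 of the 86 kept heavy-chain V windows (84.9%) and ATTTGCAT in 0 of them. ATTTGCAT stood in 63 of 87 kappa V windows (72.4%) and ATGCAAAT in 2 (2.3%). All 3 lambda V windows held ATTTGCAT. Among 21770 protein-coding genes, 0.868% held ATGCAAAT, 0.845% held ATTTGCAT and 1.68% held either, and neither the *Jchain* nor the *Pigr* window held one. The median distance from octamer to gene start was 106 bases for heavy-chain V genes and 91 for kappa V genes. A match is a description of letters and not a measured site. Windows of 60 bases, all upstream of the annotated start, are shown for 2 much-used V genes of each locus, with the octamer in capitals, to show the orientations side by side. They lie at chr12:114252278-114252337 (minus strand) for *Ighv3-6*, chr12:115122530-115122589 (minus) for *Ighv1-53*, chr6:68609474-68609533 (minus) for *Igkv10-96*, chr6:67586597-67586656 (plus) for *Igkv1-135*, chr16:18904282-18904341 (minus) for *Iglv1* and chr16:19060493-19060552 (minus) for *Iglv3*.
Ighv3-6: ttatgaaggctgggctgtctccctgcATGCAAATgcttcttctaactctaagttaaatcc
Ighv1-53: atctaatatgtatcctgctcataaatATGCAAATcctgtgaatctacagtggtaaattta
Igkv10-96: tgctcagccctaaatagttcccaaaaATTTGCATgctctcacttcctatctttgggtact
Igkv1-135: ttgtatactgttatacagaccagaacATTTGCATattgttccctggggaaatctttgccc
Iglv1: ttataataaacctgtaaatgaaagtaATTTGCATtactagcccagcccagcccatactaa
Iglv3: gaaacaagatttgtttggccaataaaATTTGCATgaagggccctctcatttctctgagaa

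Counts over the 266 genes fell mostly in the constant genes. The 8 heavy-chain constant genes held 451455 counts, *Igkc* 236486 and the lambda constant genes 14394, of which 3 of 4 were kept. The 86 kept of 113 heavy-chain V genes, 87 of 102 kappa V genes and 3 of 3 lambda V genes came from loci with 23311, 52478 and 5701 V counts. No D gene of 19 was kept, and 16 of them were at 0. J genes were sparse, with 2 of 4 heavy-chain, 5 of 5 kappa and 1 of 5 lambda genes kept. Just under the limit of 10 counts were *Igkv8-16* and *Ighv11-1* with 9 each, and just over it were *Ighv11-2* and *Igkv1-132* with 14 each.

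Total counts per library ranged from 15412542 to 36000439. Levels are given as CPM, the counts of a gene brought to a common library size, scaled by the TMM factors of edgeR, which ranged from 0.7157 to 3.042. Some libraries stood apart. In 4 dams *Igha* was far below the others, with 35.7 CPM in breeder diet + saline dam 10, 14.0 in FA diet + fluoxetine dam 10, 95.1 in FA diet + saline dam 10 and 46.6 in FA diet + saline dam 11, against at least 304 in each of the other 27. All 3 dams numbered 10 were among the 4, and the breeder diet + fluoxetine group has no dam numbered 10 or 11. The labels do not say what the number marks. FA diet + fluoxetine dam 3 stood apart in another way, with the highest scaling factor, the lowest *Pigr* (53.5 CPM) and the lowest *Ccl28* (4.74 CPM). Its milk protein genes were low too, with *Csn2* at 13531 CPM against a median of 160759 and *Wap* at 14614 against 199152. The sum of the listed epithelial genes, which is mostly *Csn2* and *Wap*, was 28558 CPM against at least 159475 in every other dam. Not all of these genes were low, since the keratin gene *Krt18* was at 149 CPM, the highest of the 31 dams, against a median of 65.9.

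*Igha*, the constant gene of IgA (chr12:113218450-113223856, minus strand), was the main heavy-chain transcript in every dam. Its level ran from 35.7 CPM through a median of 764 to 1286 on breeder diet + saline, and from 304 through 574 to 1268 on breeder diet + fluoxetine. On FA diet + saline it ran from 46.6 through 725 to 985, and on FA diet + fluoxetine from 14.0 through 414 to 1121. The 4 groups overlapped over most of their ranges. *Igha* was 0.15 log2 units lower with fluoxetine than with saline (SE 0.43, edgeR quasi-likelihood FDR 0.94) and 0.39 lower on FA diet than on breeder diet (SE 0.43, FDR 0.96), and neither difference passed FDR 10%. Without the dams numbered 10 or 11 these differences were -0.41 (edgeR FDR 0.53) and -0.28 (edgeR FDR 0.999). Of the dams low for *Igha*, all left out there, only FA diet + fluoxetine dam 10 had received fluoxetine. The lower fluoxetine difference is in part set by that choice. A smaller number of plasma cells and less RNA per plasma cell cannot be told apart in bulk tissue.

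*Igkc*, the single kappa constant gene (chr6:70703419-70703950, plus strand), ran from 18.8 through a median of 393 to 676 CPM on breeder diet + saline and from 163 through 297 to 693 on breeder diet + fluoxetine. It ran from 24.6 through 413 to 578 on FA diet + saline and from 9.04 through 203 to 705 on FA diet + fluoxetine. *Jchain* (chr5:88667668-88675750, minus strand) ran from 7.35 through 164 to 254 CPM, 55.4 through 144 to 291, 9.22 through 162 to 250 and 3.76 through 110 to 256 in the same order of groups. Both genes were lowest in the 4 dams that were lowest for *Igha*, and their groups overlapped. The fluoxetine differences were -0.12 (SE 0.44) for *Igkc* and -0.03 (SE 0.44) for *Jchain*, with FDR of 0.95 and 0.99 by edgeR. Without the dams numbered 10 or 11, which were mostly saline dams, they were -0.37 and -0.29, with edgeR FDR of 0.60 and 0.67.

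*Pigr* (chr1:130754397-130779986, plus strand) did not share this pattern. It ran from 433 through a median of 508 to 812 CPM on breeder diet + saline, from 432 through 558 to 688 on breeder diet + fluoxetine, from 256 through 536 to 624.8 on FA diet + saline and from 53.5 through 503 to 776 on FA diet + fluoxetine. In the 4 dams low for *Igha* it was 460, 456, 543 and 531 CPM in the order in which they are named above. The fluoxetine difference was 0.04 (SE 0.19, edgeR FDR 0.96) and the FA difference -0.18 (SE 0.19, edgeR FDR 0.96). Per kb of exon, the mean level over the 31 dams was 647 CPM per kb for *Igkc*, 241 for *Igha*, 130 for *Pigr* and 56.2 for *Jchain*.

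*Ighm*, the constant gene of IgM (chr12:113382178-113386350, minus strand), was low in every group. Its level ran from 2.16 through a median of 3.56 to 5.01 CPM on breeder diet + saline, 1.83 through 3.82 to 7.86 on breeder diet + fluoxetine, 2.91 through 4.61 to 6.48 on FA diet + saline and 1.24 through 2.84 to 10.9 on FA diet + fluoxetine. In the 4 dams low for *Igha*, *Ighm* was 3.79, 2.49, 5.04 and 2.91 CPM, inside the range of the other dams. The highest *Ighm* was in FA diet + fluoxetine dam 3. The fluoxetine difference was 0.12 (SE 0.23, edgeR FDR 0.90).

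**Figure D1:**
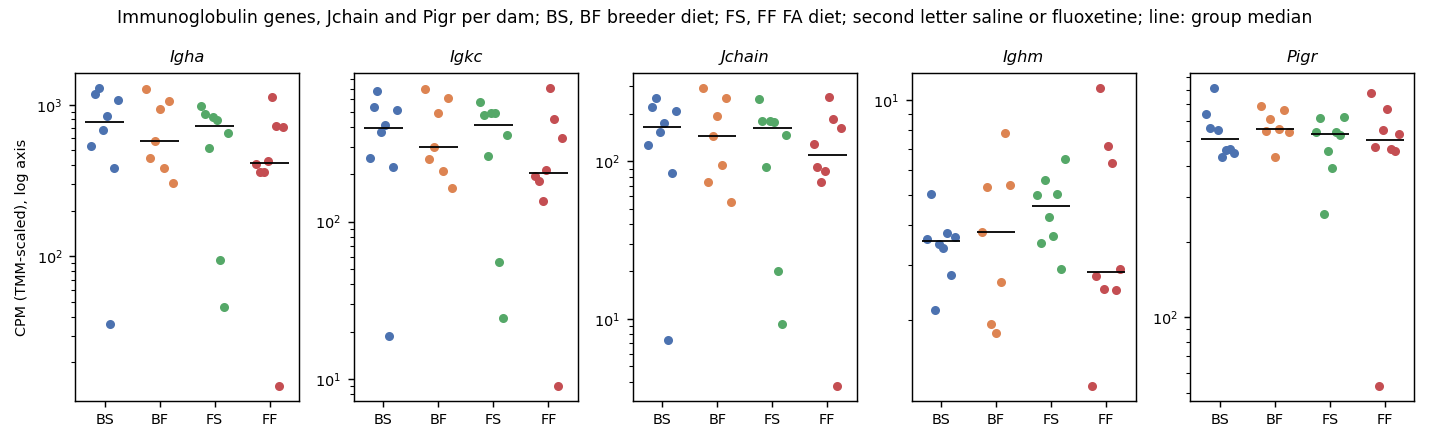
Level of each gene (CPM, TMM-scaled, log axis) per dam in the 4 groups, where points are dams and lines are group medians (BS and BF, breeder diet with saline and with fluoxetine, FS and FF, FA diet likewise). *Igha*, *Igkc* and *Jchain* each show the same 4 dams far below the rest, while *Pigr* is lowest in another dam at 53.5 CPM.

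*Igha*, *Igkc* and *Jchain* rose and fell together from dam to dam. Over 31 dams, and after each group's mean was subtracted, the log2 level of *Igha* correlated with *Jchain* at Pearson r = 0.994 (Spearman rho = 0.968) and with *Igkc* at r = 0.995 (rho = 0.979). Each r and rho had a permutation p of 1e-05, the smallest that 100000 resamples can give, and the adjusted p over 6 relations was at most 3e-05. Without breeder diet + saline dam 10 and FA diet + fluoxetine dam 10, r was 0.986 and 0.991. Over the 27 dams with *Igha* above 300 CPM, r was 0.960 and 0.977. The points share library and scaling. The ratio of *Igha* counts to *Igkc* counts ranged from 1.55 to 2.66 and that of *Igha* to *Jchain* from 3.15 to 5.96, while *Igha* itself ranged from 14.0 to 1286 CPM.

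*Igha* was not detectably related to *Pigr* (r = 0.0779, permutation p = 0.628, adjusted p = 0.832, rho = 0.314, permutation p = 0.0859, adjusted p = 0.129). Without the 2 farthest dams r was 0.112, and over the 27 dams it was 0.303 (permutation p = 0.122). It was not detectably related to *Ccl28* either (r = 0.0153, permutation p = 0.926, adjusted p = 0.926, rho = 0.133, permutation p = 0.476, adjusted p = 0.571), with r of 0.227 without the 2 farthest dams and 0.325 over the 27 (permutation p = 0.0965). *Mzb1*, which encodes a chaperone of antibody-secreting cells, followed *Igha* (r = 0.800, permutation p = 1e-05, adjusted p = 2e-05, rho = 0.586, permutation p = 0.00065, adjusted p = 0.0013). Without the 2 farthest dams that r was 0.723, and over the 27 dams it was 0.466 (permutation p = 0.0139, adjusted p = 0.0277). *Mzb1* was at 0 counts in all 4 dams low for *Igha* and in breeder diet + fluoxetine dam 5.

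**Figure D2:**
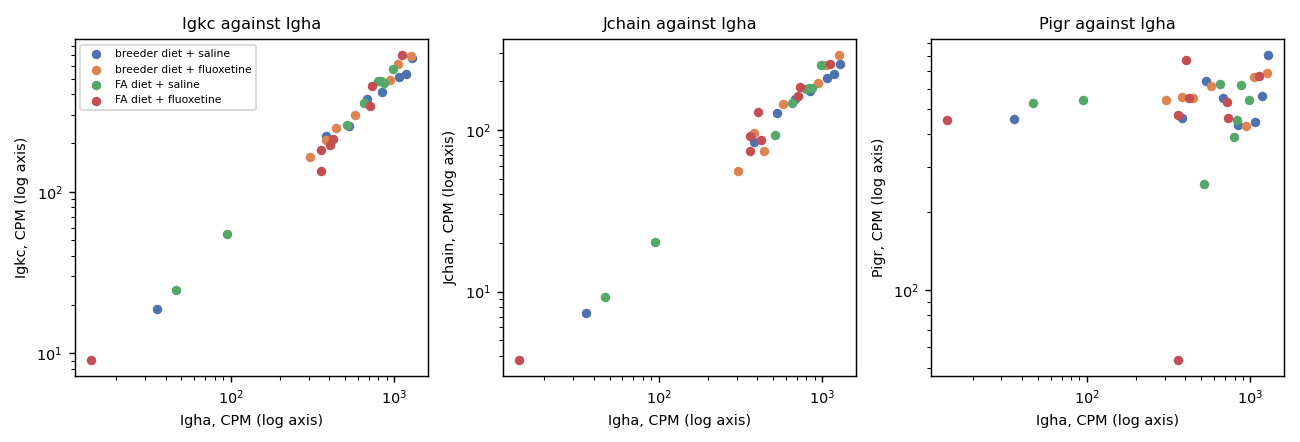
Levels of *Igkc*, *Jchain* and *Pigr* against *Igha* (CPM, log axes), 1 point per dam coloured by group. The first 2 panels follow a line over the whole range of *Igha*, with 4 dams under 100 CPM, and the *Pigr* panel does not (r = 0.0779 after group means were subtracted).

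IgA made up nearly all of the heavy-chain constant level. For these shares counts were divided by exon length, since genes differ in length. The *Igha* share ran from 84.7 through a median of 97.9 to 98.8% on breeder diet + saline, 93.6 through 97.9 to 98.7% on breeder diet + fluoxetine, 86.6 through 97.5 to 98.3% on FA diet + saline and 79.3 through 97.7 to 98.4% on FA diet + fluoxetine. The groups overlapped. The mean was 95.8% in 15 fluoxetine dams and 96.0% in 16 saline dams (difference within diet -0.0456 percentage points, stratified permutation test, 2-sided p = 0.978, adjusted over 4 tests 0.978). It was 95.1% in 16 FA diet dams and 96.8% in 15 breeder diet dams (difference within drug -1.76 points, permutation p = 0.328, adjusted p = 0.930). The low ends were the dams with little *Igha*, in which *Ighm* took 12.7% (breeder diet + saline dam 10), 19.9% (FA diet + fluoxetine dam 10), 6.84% and 7.66% (FA diet + saline dams 10 and 11) against a median of 0.878% over all dams.

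The IgG genes were far below *Igha*. Mean levels per kb were 1.44 CPM for *Ighg2c*, 1.35 for *Ighg2b*, 0.608 for *Ighg1* and 0.0801 for *Ighg3*, against 2.21 for *Ighm*, 0.0625 for *Ighd* (IgD) and 0.0409 for *Ighe* (IgE). The highest *Ighg1* was 9.18 CPM in FA diet + saline dam 12, where *Ighg2c* was at 0, and in the other 30 dams *Ighg1* was at most 3.89 CPM. By group *Ighg1* ran from 0.0881 through a median of 1.1 to 2.84 CPM on breeder diet + saline, 0.586 through 2.14 to 3.89 on breeder diet + fluoxetine, 0.243 through 1.42 to 9.18 on FA diet + saline and 0 through 0.806 to 1.51 on FA diet + fluoxetine. *Ighg2b* and *Ighg2c* coding sequences were 88% identical, and whether reads were shared between them was not tested.

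Kappa exceeded lambda in every dam. The *Igkc* share of the light-chain constant level ran from 88.0 through a median of 94.1 to 97.4% over all dams. It averaged 93.9% with fluoxetine and 94.1% with saline (difference -0.160 points, permutation p = 0.838, adjusted p = 0.978), and 93.8% on FA diet and 94.3% on breeder diet (difference -0.575 points, permutation p = 0.465, adjusted p = 0.930). Of the lambda constant genes, *Iglc1* had a mean of 27.7 CPM per kb, *Iglc2* 10.8 and *Iglc3* 3.12. *Iglc4* held 2 counts in all and was dropped. *Iglc2* was highest in breeder diet + saline dams 2 and 12, with 32.3 and 24.0 CPM, and its group ran from 0.572 through a median of 6.59, against 1.61, 4.08 and 7.66 on breeder diet + fluoxetine, 0.566, 5.63 and 14.9 on FA diet + saline and 0.044, 3.54 and 10.2 on FA diet + fluoxetine. The fluoxetine difference of *Iglc2* was -0.94 (SE 0.49, edgeR FDR 0.53), that of *Iglc1* 0.50 (SE 0.49, edgeR FDR 0.77) and that of *Iglc3* 0.13 (SE 0.53, edgeR FDR 0.96).

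The first 60 coding bases of the 3 lambda constant genes are shown because 2 of them are close in sequence. Capitals mark the 13 positions where the 3 differ, and *Iglc2* and *Iglc3* differ at 4 of these. Over the coding sequence *Iglc2* and *Iglc3* were 96.2% identical, *Iglc1* and *Iglc2* 74.5% and *Iglc1* and *Iglc3* 75.5%. The split between *Iglc2* and *Iglc3* is uncertain, and whether reads were shared between them was not tested. All 3 are on the minus strand, at chr16:18880368-18880821 for *Iglc1*, chr16:19017146-19019101 for *Iglc2* and chr16:18883980-18884431 for *Iglc3*.
Iglc1: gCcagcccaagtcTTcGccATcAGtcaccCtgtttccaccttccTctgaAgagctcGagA
Iglc2: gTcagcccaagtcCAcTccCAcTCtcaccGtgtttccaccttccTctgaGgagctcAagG
Iglc3: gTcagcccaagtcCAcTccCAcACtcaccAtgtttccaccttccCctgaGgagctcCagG

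**Figure D3:**
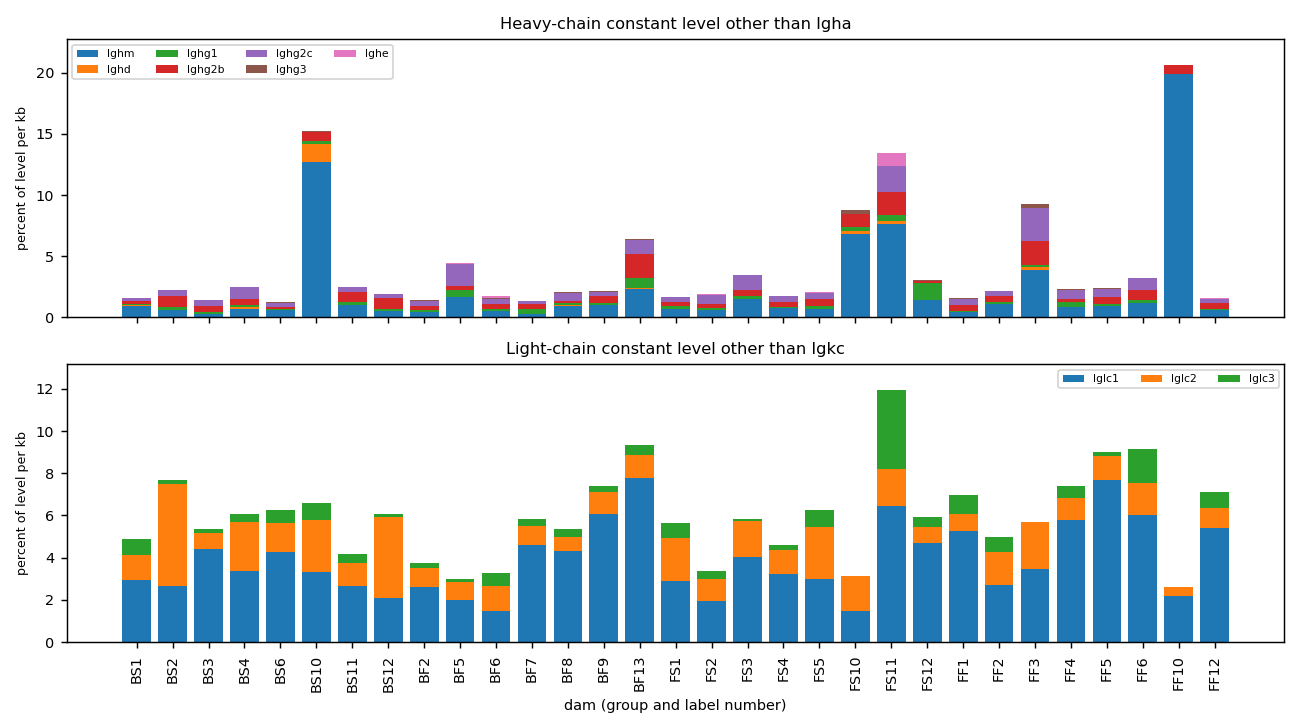
Share of constant level per kb (percent) held by classes other than *Igha* (top) and by lambda genes (bottom), 1 bar per dam named by group letters and label number. *Ighm* reaches 19.9% in FA diet + fluoxetine dam 10, and *Iglc2* is widest in breeder diet + saline dams 2 and 12.

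V gene use was spread over many genes. Of the summed heavy-chain V counts, *Ighv1-26* (chr12:114751992-114752425, minus strand) held 5.33%, *Ighv1-81* 4.83%, *Ighv3-6* 3.84%, *Ighv1-64* 3.78% and *Ighv1-53* 3.76%, which made 21.5% together. Of the kappa V counts, *Igkv1-110* (chr6:68247469-68248251, plus strand) held 7.18%, *Igkv1-117* 6.94%, *Igkv10-96* 6.13%, *Igkv1-135* 4.08% and *Igkv6-15* 3.54%, which made 27.9% together. *Iglv1* held 79.4% of lambda V counts, *Iglv3* 16.5% and *Iglv2* 4.07%. By family, Ighv1 held 60.7% of heavy-chain V counts in 43 genes and Ighv5 9.27% in 8, and Igkv1 held 20.0% of kappa V counts in 8 genes and Igkv4 14.3% in 21. Close copies make the split between single genes uncertain, since *Igkv1-110* and *Igkv1-117* were 97.2% identical, *Ighv1-26* and *Ighv1-18* 96.9%, and *Iglv1* and *Iglv2* 96.9%, while *Iglv3* was 60.9% identical to *Iglv1*. The octamer stood in the windows of 3 of the 5 most-counted heavy-chain V genes, 2 of the 5 kappa and 3 of the 3 lambda V genes.

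Some dams leaned on single V genes. In FA diet + saline dam 12, the dam with the highest *Ighg1*, *Ighv1-76* (chr12:115811501-115811951, minus strand) held 183 of 765 heavy-chain V counts (23.9%, 95% Wilson interval 21.0 to 27.1%), against at most 4.55% in the other libraries with at least 100 heavy-chain V counts. *Igkv8-21* held 188 of its 1662 kappa V counts (11.3%, interval 9.88 to 12.9%), against at most 3.33% in the others. In FA diet + fluoxetine dam 10, *Ighv1-26* held 9 of only 15 heavy-chain V counts (interval 35.7 to 80.2%). Such intervals cover counting error only. Evenness was measured by the inverse Simpson number, which is the number of equally used genes that would give the same spread. It ranged from 11.5 to 47.3 (median 34.6) for heavy-chain V genes in 27 libraries and from 13.5 to 42.4 for kappa V genes in 28 libraries with at least 100 V counts. The heavy-chain medians were 36.0, 34.6, 33.4 and 28.8 in breeder diet + saline, breeder diet + fluoxetine, FA diet + saline and FA diet + fluoxetine, and the kappa medians were 30.5, 27.8, 29.2 and 29.7.

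**Figure D4:**
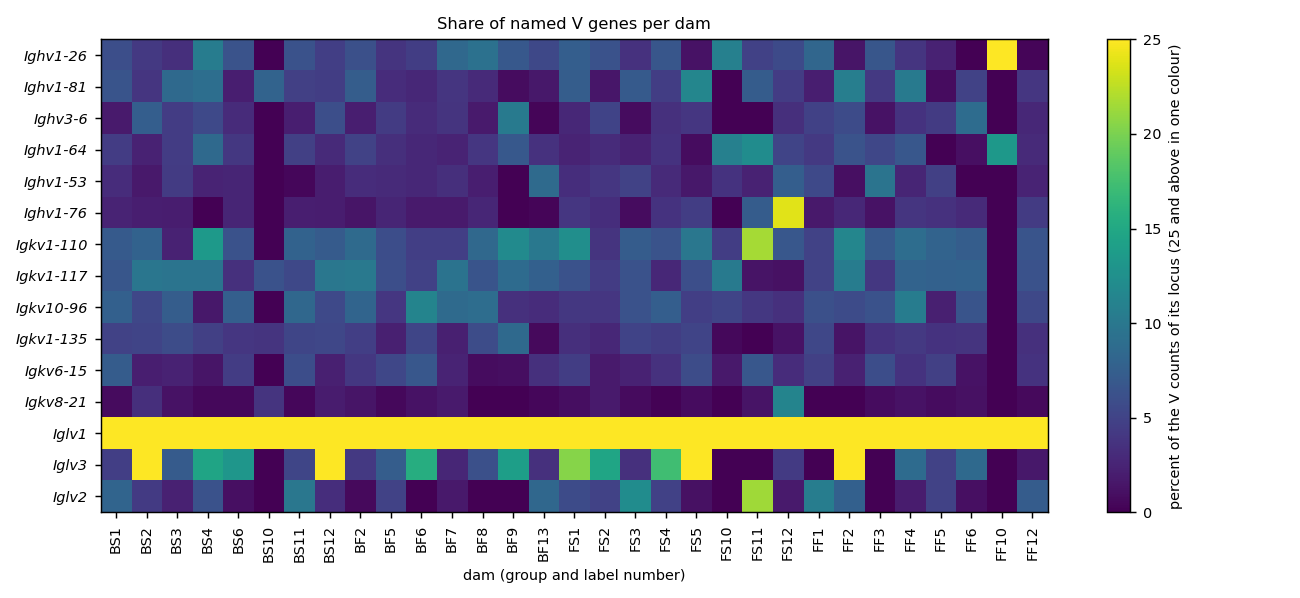
Share of the V counts of its locus held by each named V gene (colour, percent, 25 and above in one colour) in each dam. *Ighv1-76* stands out at 23.9% in FA diet + saline dam 12 and *Iglv3* in breeder diet + saline dams 2 and 12.

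Breeder diet + saline dams 2 and 12 used V genes more alike than any other pair of libraries with at least 100 V counts in the locus. Likeness was the Pearson r of the square roots of the shares within a locus. For heavy-chain V genes the pair had r = 0.931, the highest of 351 pairs, with a next value of 0.747 and a median of 0.486. For kappa V genes it had r = 0.948, the highest of 378, with a next value of 0.895 (FA diet + saline dams 1 and 5) and a median of 0.642. *Iglv3* held 193 of 350 lambda V counts in dam 2 (55.1%, interval 49.9 to 60.3%) and 314 of 609 in dam 12 (51.6%, interval 47.6 to 55.5%), against 33.0% in FA diet + saline dam 5, 32.8% in FA diet + fluoxetine dam 2 and a median of 7.19% over the other libraries with at least 100 lambda V counts. The same pair was also highest for *Iglc2*. Over the other genes, after subtracting group means, r was 0.109, the 9th of 84 pairs within groups. These values were described and given no p. The labels give them as separate dams, and whether they share an animal was not tested.

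**Figure D5:**
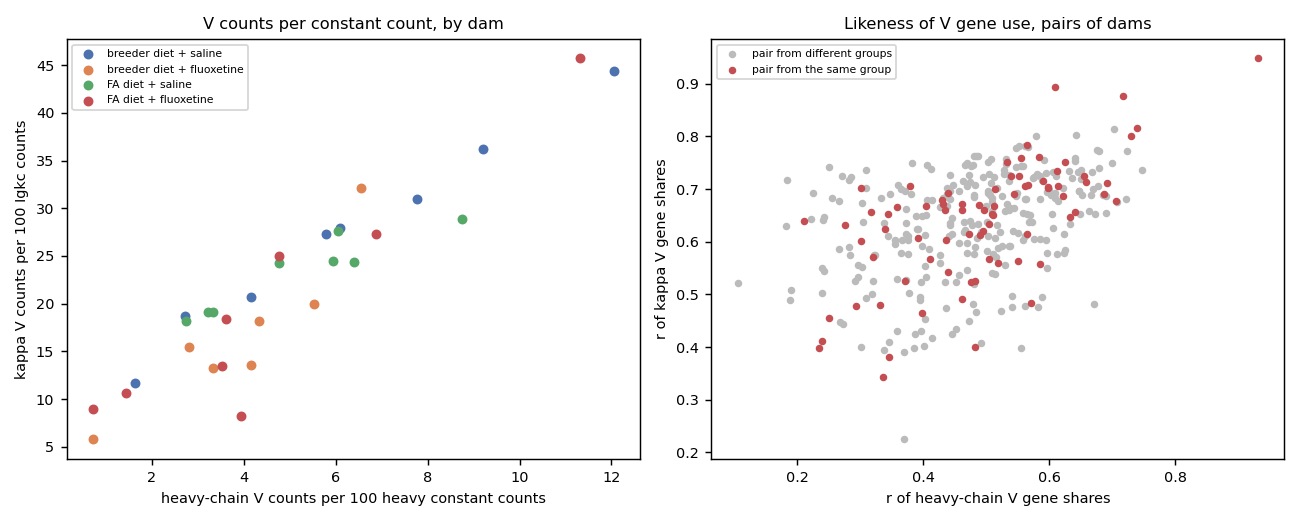
Left, V counts per 100 constant counts of the kappa locus against those of the heavy-chain locus, 1 point per dam (r of the log2 values 0.891). Right, likeness (Pearson r) of kappa V use against that of heavy-chain V use for each pair of dams, where the pair at the top right is breeder diet + saline dams 2 and 12 (0.931 and 0.948).

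No member passed FDR 10% for fluoxetine, for FA or for their interaction. Of the members, 123 had enough counts to be tested among 14362 genes, of which 112 were V genes. In the fluoxetine comparison 0 members were called by edgeR's quasi-likelihood test (0.0209% of all genes were called). Its likelihood ratio test called 0 members, beside 37 higher and 8 lower of all 14362 genes. DESeq2 called 2 members (0.487% of all genes), which were *Igkv4-91* (adjusted p 0.0974) and *Igkv13-85* (adjusted p 0.0979). Before adjustment 24 members had p up to 0.05, all of them V genes and all lower with fluoxetine, against 9.92% of all genes in either direction and 2.98% lower. For FA, 0 members were called (0.0% of all genes) and 8 had p up to 0.05 before adjustment (5.08% of all genes). For the interaction, 0 were called (0.0%) and 3 had such a p (3.84%).

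The V genes and the constant genes differed in their fluoxetine medians. The median log2 difference was 0.02 over all tested genes, -0.96 over 45 heavy-chain V genes (2 higher), -0.80 over 64 kappa V genes (0 higher), -0.91 over 3 lambda V genes (0 higher) and 0.12 over 9 constant genes (5 higher). The members with the smallest p were *Igkv4-91* (chr6:68745539-68746087, minus strand), *Igkv13-85* (chr6:68907253-68907718, minus strand) and *Ighv3-1*. *Igkv4-91* ran from 0.132 through a median of 1.24 to 2.05 CPM on breeder diet + saline, 0 through 0.0318 to 0.814 on breeder diet + fluoxetine, 0 through 1.26 to 4.59 on FA diet + saline and 0 through 0.315 to 1.14 on FA diet + fluoxetine. It had counts in 15 of 16 saline dams and 10 of 15 fluoxetine dams, and its groups overlapped. Its difference was -2.07 (SE 0.61, edgeR FDR 0.303). *Igkv13-85* had medians of 1.08, 0.171, 0.491 and 0.199 CPM in the same order and differed by -1.88 (SE 0.56, edgeR FDR 0.312), and *Ighv3-1* differed by -2.12 (SE 0.68, edgeR FDR 0.342). *Iglv3*, the gene that set breeder diet + saline dams 2 and 12 apart, differed by -2.10 (SE 0.74, edgeR FDR 0.391).

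Heavy-chain and kappa V counts relative to constant counts moved with these V medians, while the lambda median was lower with fluoxetine on breeder diet and higher on FA diet. Heavy-chain V counts per 100 heavy constant counts had medians of 5.94 on breeder diet + saline, 4.17 on breeder diet + fluoxetine, 5.36 on FA diet + saline and 3.78 on FA diet + fluoxetine, and ranged from 0.726 to 12.1 over all dams. Kappa V counts per 100 *Igkc* counts had medians of 27.6, 15.5, 24.3 and 15.9 and ranged from 5.76 to 45.7. Lambda V counts per 100 lambda constant counts had medians of 51.3, 43.5, 40.0 and 44.9, with means of 45.9 over saline dams and 44.6 over fluoxetine dams. The fluoxetine mean includes FA diet + fluoxetine dam 10 at 120, the highest value, which rests on 6 lambda V counts. The groups overlapped, and the heavy-chain and kappa loci went together from dam to dam (r = 0.891, n = 31, log2 values, which share library). In an immunoglobulin transcript the V region lies at the 5′ end and the constant region on the side of the poly-A tail, and the libraries were selected for poly-A RNA. The part of this ratio in the V differences was not tested. Within a locus the mean share was higher with fluoxetine for 46 of 86 heavy-chain V genes and 43 of 87 kappa V genes. Shares within a locus add up to the whole, so rises and falls must offset each other. Such a split cannot show whether V gene use changed.

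For FA the median was -0.58 over the 112 V genes (20 higher) and -0.18 over the 9 constant genes (3 higher), beside 0.02 over all genes. *Ighv4-1* had the smallest p, with counts in 6 of 16 FA diet dams and 13 of 15 breeder diet dams and a difference of -2.57 (SE 0.70, edgeR FDR 0.933). *Igkv9-124* differed by -1.40 (SE 0.53, edgeR FDR 0.933) and *Ighv8-12* by -1.70 (SE 0.64, edgeR FDR 0.933). The interaction had a median of 0.05 over the V genes and 0.18 over the constant genes, beside 0.03 over all genes. Its smallest p belonged to *Ighv8-8* (3.61, SE 1.24, edgeR FDR 0.977), *Ighv14-4* (3.13, SE 1.35, edgeR FDR 0.977) and *Ighg1* (-1.92, SE 0.89, edgeR FDR 0.977). Without FA diet + saline dam 12 the interaction of *Ighg1* was -1.08.

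Leaving out dams changed these counts. Without the dams numbered 10 the V median for fluoxetine was -0.92 and 39 of 112 V genes had p up to 0.05 before adjustment, beside 11.8% of all genes (3.62% lower). Without those numbered 10 or 11 it was -1.05, with 55 of 119 V genes, beside 10.2% of all genes (3.66% lower). No member passed FDR 10% in either case, and of all genes 0 were called higher and 0 lower. Those numbered 10 or 11 were dams 10 and 11 of both saline groups and dam 10 of FA diet + fluoxetine. They include every dam low for *Igha*, so mainly saline dams with little immunoglobulin RNA were taken out. The lower fluoxetine differences are in part set by that choice. Leaving out 1 dam at a time gave fluoxetine V medians from -1.06 to -0.72. The count was 40 of 116 without breeder diet + fluoxetine dam 7 (11.3% of all genes, 3.86% lower), 15 of 108 without FA diet + saline dam 2 (8.25%, 2.27% lower) and 16 of 106 without breeder diet + saline dam 12 (8.62%, 2.43% lower). For FA the V medians ran from -0.67 to -0.40. The FA count was 16 of 108 V genes without FA diet + saline dam 2 (4.78% of all genes), 3 of 106 without breeder diet + saline dam 12 (4.27%) and 4 of 116 without breeder diet + fluoxetine dam 7 (4.87%). It was 5 without FA diet + fluoxetine dam 1 or 10, FA diet + saline dam 10, 11 or 12, or breeder diet + saline dam 2, 3 or 6. Beside these stood 4.12 to 5.49% of all genes. The interaction's V median changed sign, from -0.19 without FA diet + fluoxetine dam 3 to 0.63 without breeder diet + fluoxetine dam 7. Its count ran from 1 to 5, beside 2.96 to 5.28% of all genes.

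Plasma cell genes were present in all groups at levels that did not separate them. All 15 listed plasma cell genes were tested and 0 passed FDR 10% in any comparison, with a fluoxetine median of -0.06. The sum of the list ran from 323 CPM in FA diet + fluoxetine dam 3 to 1246 CPM, and in the 4 dams low for *Igha* it was 808, 1113, 986 and 1055. Its most-counted gene was *Xbp1*, a secretory cell factor that mammary epithelium also makes (131 to 508 CPM), and *Fkbp11* (median 296 CPM) and *Sec11c* (median 129 CPM), which serve the secretory pathway, came next. *Derl3*, which serves protein disposal in secretory cells, was 5.87 to 58.0 CPM, *Irf4* 0 to 2.37 and *Prdm1* 0.0519 to 1.55. Such low genes add little to the list sum. In the 4 dams low for *Igha*, *Irf4* was 0.704, 0, 0.180 and 0 CPM (median over all dams 1.01). *Pou2af1*, another listed gene, was 0.0881, 0.0437, 0.240 and 0.0809 CPM there (median 1.45). *Slamf7* was above its median of 0.769 CPM in the first of these dams (0.969) and below it in the others. B cell markers were low, with 5 of 14 tested, *Cd72* at a median of 3.12 CPM, *Ebf1* at 1.85, *Ms4a1* at 15 counts and *Pax5* at 13 over 31 libraries, and a list sum of 4.21 to 20.3 CPM that was highest in FA diet + fluoxetine dam 3. Of lymph node genes 3 of 13 were tested, with *Ccl19* at 3 counts, *Ccr7* at 26 and *Ccl21a* at 68, and a sum of 0.390 to 8.11 CPM. None of the tested B cell or lymph node genes passed FDR 10%.

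Among the genes of homing, 11 of 12 were tested and 0 passed. *Ccl28*, the epithelial chemokine for IgA cells, ran from 113 through a median of 189 to 274 CPM on breeder diet + saline, 76.4 through 113 to 194 on breeder diet + fluoxetine, 117 through 175 to 253 on FA diet + saline and 4.74 through 110 to 246 on FA diet + fluoxetine. Its fluoxetine difference was -0.62 (SE 0.29, edgeR FDR 0.483), and its groups overlapped. *Ccr10*, the receptor for CCL28, held 393 counts in all and differed by 0.05 (SE 0.49, edgeR FDR 0.98). Of class switch and survival genes 7 of 15 were tested and 0 passed, with 4 higher and 3 lower with fluoxetine and a median of 0.20. The most-counted were *Tgfbr2*, a receptor chain for TGF-beta, at -0.21 (SE 0.15, edgeR FDR 0.64) and *Tgfb1*, its ligand, at 0.20 (SE 0.12, edgeR FDR 0.58). The survival factor genes *Tnfsf13* (APRIL) and *Tnfsf13b* (BAFF) were at -0.61 (SE 0.24, edgeR FDR 0.43) and 0.43 (SE 0.27, edgeR FDR 0.60), and *Aldh1a1*, which serves retinoic acid synthesis, was at 0.79 (SE 0.40, edgeR FDR 0.52). *Cd40lg* held 1 count and *Il21* 0. Of the 4 recombination genes found, *Rag1* held 4 counts and *Rag2*, *Dntt* and *Igll1* 0, and none was tested. Of the antibody receptors *B2m*, the partner chain of the IgG receptor encoded by *Fcgrt*, had a median of 130.5 CPM and *Fcgrt* 6.11 CPM. The 9 antibody receptor genes had a fluoxetine median of 0.19 and the 7 epithelial genes -0.09, and 0 of either passed FDR 10%. The milk protein genes *Wap* and *Csn2* differed by -0.09 (SE 0.22, edgeR FDR 0.93) and -0.21 (SE 0.21, edgeR FDR 0.77) with fluoxetine.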

How the data were processed

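Total RNA of mammary tissue was made into poly-A libraries and sequenced as paired reads. The authors trimmed reads with Trim Galore 0.4.4, aligned them to GRCm39 with HISAT2 and deposited raw counts per gene from htseq-count (intersection-nonempty mode, by which a read pair that touches a V and a C gene is assigned to neither). The annotation release and strand setting are not given in the sources used here, and 667 genes in the files were not in the annotation used here for class and position. Groups follow the labels, from which the study's methods differ in the sizes of the fluoxetine groups.

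The main test was edgeR 4.0.16 (R 4.3.3): TMM scaling, filterByExpr, a 4-group model and robust quasi-likelihood tests of fluoxetine, FA and their interaction over all 14362 genes tested, with Benjamini-Hochberg FDR of 10%. Shares were compared by permutation within strata (100000 resamples, 10000 when 1 dam was left out), and correlations used log2 CPM with a prior count of 2, less group means, with p-values adjusted over 6 relations, 1 of which is not reported here. Alternatives were DESeq2 1.42.0, the likelihood ratio test, other filters and scalings, a replicate block, each diet alone and leaving out dams. The tests were checked on simulated data. For edgeR these had the same dispersion (0.1694) for all genes and no dams set apart. That check therefore does not cover the spread of the members between dams. Total counts were 15412542 to 36000439 per library, and V shares rest on fewer counts. No same-group pair of libraries agreed within sampling noise.

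Members and gene lists were chosen with earlier results of these data known. Genes named are all constant-region genes, *Jchain*, *Pigr*, the 5 V genes with most counts per locus, members past FDR 10%, the 3 members with the smallest p per comparison, and, of other lists, genes past FDR 10%, the most-counted and defining markers at or near 0. *Ighv1-76*, *Igkv8-21*, *Iglv3* as a tested gene, *Irf4*, *Prdm1*, *Derl3*, *Pou2af1*, *Slamf7*, *Tnfrsf17*, *Krt18*, *Ccr10*, *Tnfsf13*, *Tnfsf13b* and *Aldh1a1* were named after their values were seen. Alternatives that leave out the dams numbered 10, or 10 and 11, were chosen after seeing the data.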

Additional observations from a re-analysis of the deposited data

Results flagged for a closer look

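In groups of 4 to 10 dams, a dam was singled out when its gap to the nearest other dam was large against the range of its group (Dixon's test at the 95% level). Of 80 groups tested, 19 gave such a dam, and chance alone gives about 1 in 20 independent groups. These groups are not independent, since several of the genes moved together from dam to dam, so the 19 cannot be weighed against that rate.

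Most were 2 dams numbered 10. Breeder diet + saline dam 10 was low on the log2 CPM scale for *Igha* (5.16), *Igkc* (4.239), *Iglc1* (-0.6001) and *Jchain* (2.895), and its IgA share of the heavy-chain constant level was 84.75%. FA diet + fluoxetine dam 10 was low for *Igha* (3.819), *Igkc* (3.191), *Iglc1* (-1.932), *Iglc2* (-2.932), *Jchain* (1.943), *Ighg1* (-3.518) and *Ighg2c* (-3.518), and its IgA share was 79.33%. *Ighg1* and *Ighg2c* held 0 counts in that dam.

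*Pigr* was low in FA diet + fluoxetine dam 3 (log2 CPM 5.744). *Ighe* stood above a group otherwise at or near 0 in breeder diet + saline dam 3 (-2.335, from 2 counts) and FA diet + fluoxetine dam 12 (-2.202, from 3 counts). The kappa share of the light-chain constant level was low in FA diet + saline dam 11 (88.04%). The inverse Simpson number of heavy-chain V genes was low in breeder diet + saline dam 4 (18.56) and FA diet + saline dam 12 (11.5).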

How the results depend on the processing

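No member was called for FA or the interaction under any alternative run, and for fluoxetine only DESeq2 called any (2, beside 0.487% of all genes). Differences that missed the threshold changed sign in places, and the cause was not tested. For fluoxetine, the IgA share difference was 0.102 points as a difference of medians, the kappa share difference 0.0917 points without division by length, and *Igkc* and *Jchain* were 0.0469 and 0.0386 on breeder diet alone. Without the dams numbered 10, the interaction was 0.0714 for *Igha* and 0.0666 for *Jchain*, and without those numbered 10 or 11 it was 0.0542 for *Pigr*. Leaving out 1 dam at a time, the fluoxetine difference ran from -0.880 to 1.05 points for the IgA share, -0.598 to 0.166 points for the kappa share, -0.0560 to 0.189 for *Ighm*, -0.145 to 0.0750 for *Jchain* and -0.0157 to 0.120 for *Pigr*. The interaction ran from -0.406 to 0.0691 for *Igha*, -0.384 to 0.0810 for *Jchain* and -0.197 to 0.0806 for *Pigr*, and r from -0.0718 to 0.161 for *Igha* with *Ccl28*.

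The labels give dams of different groups the same numbers, without saying that a number pairs them. Over 28 same-number pairs the median correlation of deviations was 0.0791 and 12 exceeded 0.1, against a median of -0.00699 and 74 of 332 for pairs with other numbers. Same-number pairs were thus more often alike than the others. The numbers were not taken as pairs in the main fit because not every same-number pair exceeded 0.1. That rule cannot exclude an effect that dams of the same number share. With the replicate block, fluoxetine was -0.25 for *Ighm*, the V median was -1.21, 0 members were called, and the interaction was 0.0030 for *Igha*, 0.0157 for *Ighm* and 0.0634 for *Jchain*. The *Igkv4-91* difference for fluoxetine ran from -2.53 to -1.82 and that of *Igkv13-85* from -2.08 to -1.51 when 1 dam was left out. V shares in the 4 dams low for *Igha* rest on few counts.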

Other observations

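Immunoglobulin V pseudogenes, which no comparison above used, were nearly silent in the gland. The 158 genes so classed held 131 counts over 31 libraries, and 3 of them reached 10 counts. The highest was *Ighv6-1*, with 29 counts.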
